A study of Homo sapiens with 24 samples.

Results

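A combination group was compared with a vehicle group, both of libraries labelled MOLM-13. Cells of the combination group received L-ascorbic acid (LAA, vitamin C) at 250 µM together with olaparib at 1 µM for 72 h. Cells of the vehicle group received the vehicle, PBS plus DMSO. The line is taken from the labels. Levels of genes that differ between the lines are given below, and whether each library held that line alone was not tested. The 6 libraries, 3 of each group, were chosen by their treatment labels out of 24 libraries in the study. MOLM-13 is an established human acute myeloid leukemia line that carries the KMT2A-MLLT3 fusion (MLL-AF9), which all groups share. The study also treated MOLM-13 cells with LAA alone at 250 µM and with olaparib alone at 1 µM, and gave the same 4 treatments to THP-1, another leukemia line with that fusion. PolyA-selected RNA was sequenced, and each value below rests on a deposited count of reads per gene. The labels number the replicates without saying whether they were separate cultures, so a p-value here reflects the spread among these libraries, which may be technical. In RNA from whole cultures, fewer cells of a type and less RNA per cell cannot be told apart.

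Ascorbate is a cofactor of iron-dependent dioxygenases, among them the TET enzymes that oxidize methylated cytosine and the prolyl hydroxylases that mark hypoxia-inducible factor for degradation. Olaparib inhibits PARP1 and PARP2, which bind DNA breaks and build poly-ADP-ribose, and it is most toxic to cells with weak homologous recombination. Interferon-stimulated genes are switched on by STAT and IRF factors at response elements in their promoters. The integrated stress response acts through ATF4 and its partners on amino acid supply, and SREBP factors drive the genes of sterol and fatty acid synthesis.

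Depth was 18911455, 23827905 and 19419987 counts in the combination libraries, against 23093009, 20239824 and 25265870 counts in the vehicle libraries. Across the study it lay between 18666259 and 25265870. Of 58735 genes in the deposited table, 16160 had enough counts in the 12 MOLM-13 libraries to be tested. Levels are CPM, read counts scaled to the size of each library after TMM normalization. Genes are called where edgeR's quasi-likelihood test gave a Benjamini-Hochberg adjusted p under 0.05 over all genes tested.

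The cell type was checked before the results. These markers speak to cell type and not to line, since THP-1 is also a leukemia line with that fusion. Myeloid markers such as SPI1, CD33, PTPRC and MPO were present in all 6 libraries. Defining markers of T cells, B cells, red cells, epithelium and fibroblasts were absent: CD3E, CD2, MS4A1, HBB, KRT19 and COL3A1 had 0 counts in all 6. The summed level of 13 T and NK cell markers was 15.4 to 18.3 CPM in the combination libraries and 21.02 to 27.1 CPM in the vehicle libraries, and 4 of the 13 were at 0. For 9 B cell markers it was 14.8 to 17.0 CPM with the combination and 15.96 to 19.9 CPM with vehicle, with 4 at 0.

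The libraries labelled MOLM-13 and THP-1 were alike at most genes. Between the olaparib libraries of both lines, which enter neither side of the comparison reported here, 215 of 17089 genes (1.26%) differed with an adjusted p under 0.05 and at least 2-fold, 90 higher in MOLM-13 (0.527%) and 125 lower (0.731%). FLT3, a receptor tyrosine kinase of early blood cells, had 10.8, 8.98 and 10.2 CPM in the combination libraries, against 37.7, 36.0 and 33.9 CPM in the vehicle libraries. It had 8.84, 8.72 and 5.92 CPM with LAA alone, and averaged 9.23 ± 0.408 CPM (SD, n = 3) in THP-1 vehicle libraries. Every vehicle library of MOLM-13 thus lay above every combination and LAA library, and those lay near the level of THP-1. FLT3 fell with the combination by 1.85 on the log2 scale, with an SE of 0.14 and an edgeR adjusted p of 3.43e-08. MEIS1, a homeobox partner of HOXA9 in this leukemia, had 0.31, 0.526 and 0.0994 CPM with the combination, against 3.39, 4.74 and 2.92 CPM with vehicle. Its LAA libraries lay at 0.307 to 0.567 CPM.

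The same was seen for genes that THP-1 hardly expressed. In THP-1, 15 coding genes spread over 10 chromosomes reached no more than 12 counts summed across its 12 libraries, while the 3 MOLM-13 olaparib libraries gave them 20 or more. Their summed level was 5.22, 3.198 and 3.83 CPM in the combination libraries, 4.80 to 5.79 CPM with LAA, 17.6 to 20.05 CPM with olaparib, and 31.5, 32.6 and 30.8 CPM in the vehicle libraries. In THP-1 it did not exceed 0.671 CPM. The mean was 4.08 ± 1.04 CPM with the combination and 31.6 ± 0.888 CPM with vehicle (SD, n = 3 each), with an exact two-sided permutation p of 0.1, the smallest that 3 against 3 allows. Of 14 tested genes of the set, 12 were called lower than vehicle, where 7.35% of all genes tested were. Among them were DLX5, a homeobox factor, EMD, an inner nuclear membrane protein, and RAB34, a small GTPase. Genes of so few counts pass the count filter through the libraries where they are high, vehicle among them, which favours lower calls. IGF2BP3, an RNA-binding protein, had 0 counts in all combination libraries and a mean of 1.26 CPM in vehicle libraries, which makes it at least 26.0-fold lower against a floor of 3 counts over the group. Lower counts of these genes from fewer MOLM-13 cells and from less expression per cell cannot be told apart, and their part in the results below was not tested. Counts of groups against vehicle are given below also without the genes that differed at least 2-fold between the lines, called line genes here, where a group holds any. Of 195 line genes among those tested, 89 were higher in MOLM-13 and 106 lower. Smaller differences stay in: at an adjusted p under 0.05 alone, 822 of 17089 genes differed between the olaparib libraries. Counts without line genes thus do not remove every difference between the lines.

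**Figure D1:**
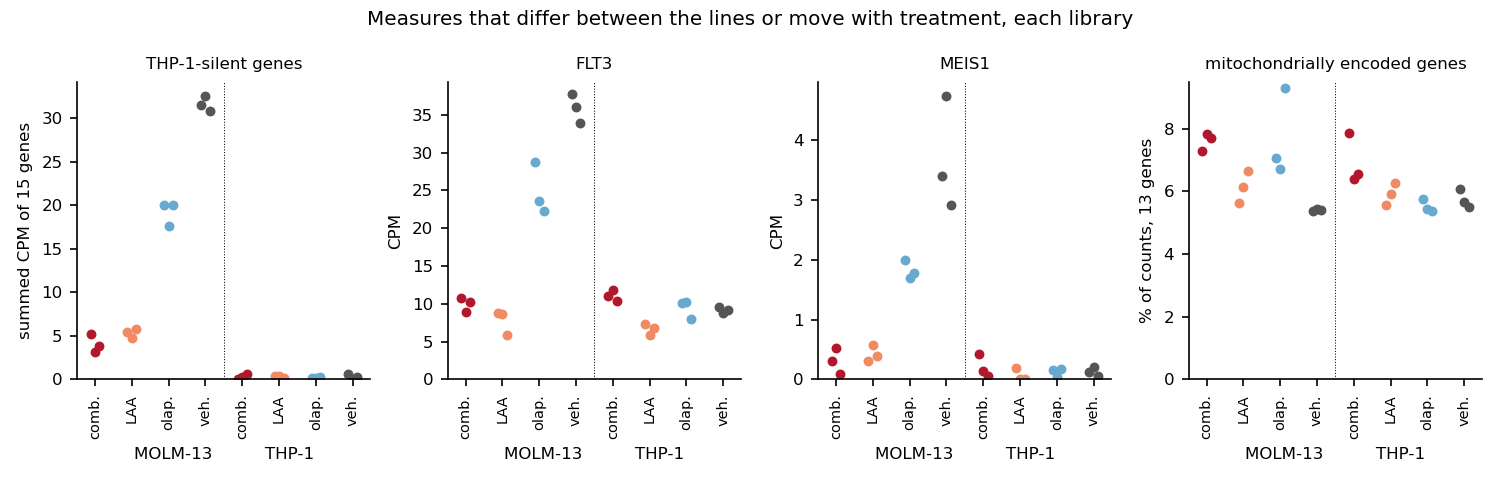
Each point is 1 library, with MOLM-13 left and THP-1 right of the dotted line and treatments in the order combination, LAA, olaparib, vehicle. The panels give the summed CPM of 15 THP-1-silent genes, CPM of FLT3 and of MEIS1, and the percent of counts on 13 mitochondrially encoded genes. The summed level lies at 3.198 to 5.22 CPM in MOLM-13 combination libraries and at 30.8 to 32.6 CPM in MOLM-13 vehicle libraries.

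The combination changed 1972 of 16160 genes (12.2%) relative to vehicle. There were 784 higher (4.85%) and 1188 lower (7.35%). Changes were mostly small: the median fold was 1.36 among genes called higher and 1.43 among those called lower, while 130 rose (0.804%) and 219 fell (1.36%) at least 2-fold. The median log2 fold change of all genes tested was 0.003. Libraries of the 2 groups did not overlap at 5667 genes (35.1%). Without the line genes 1876 calls were left, 747 higher and 1129 lower of 15965 genes. Of the 89 line genes higher in MOLM-13, 51 were called lower with the combination (57.3%) and 1 higher; of the 106 lower in MOLM-13, 36 were called higher (34.0%) and 8 lower. The count was 1043 without combination replicate 2, 1176 without combination replicate 3 and 1179 without vehicle replicate 1. Scaled by total counts instead, 1096 genes were higher and 934 lower (54.0% of the calls higher, against 39.8% with TMM).

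**Figure D2:**
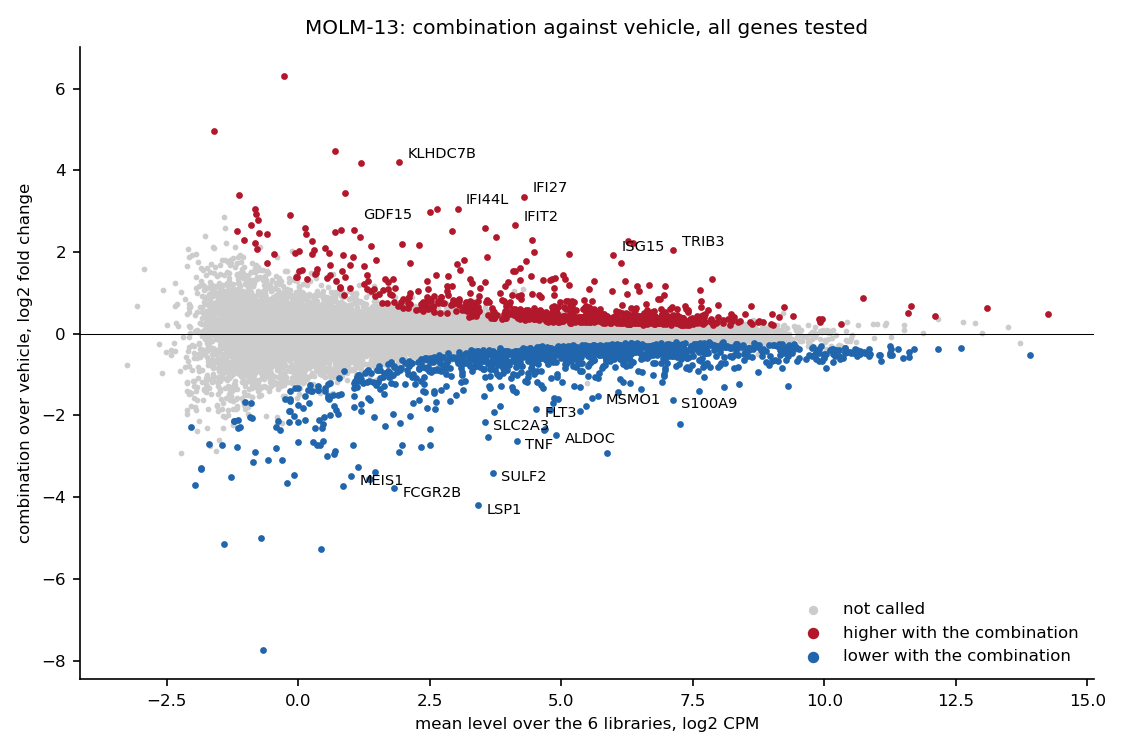
Each point is 1 of the 16160 genes tested, with the mean level over the 6 libraries on the horizontal axis (log2 CPM) and the log2 fold change of combination over vehicle on the vertical axis. Red points are the 784 genes called higher and blue points the 1188 called lower; KLHDC7B and IFI27 lie near the top and LSP1 near the bottom.

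Interferon-stimulated genes rose together. Of 48 tested members, 42 were called higher and none lower, where 4.85% and 7.35% of all genes tested were. The list's median log2 fold change was 1.31, beside 0.003 for all genes. IFI27, a small mitochondrial and nuclear envelope protein, had 39.6, 42.7 and 24.7 CPM in the combination libraries, against 1.78, 2.64 and 5.83 CPM in the vehicle libraries. Each combination library exceeded every vehicle library by more than the spread within either group. The log2 fold change was 3.36 with an SE of 0.30 and an edgeR adjusted p of 2.65e-07. IFI44L, a GTP-binding family protein, had 9.66, 19.99 and 13.9 CPM with the combination, against 1.52, 2.20 and 1.54 CPM with vehicle (log2 fold change 3.06, SE 0.28, edgeR adjusted p = 3.94e-07). ISG15, a ubiquitin-like modifier, had 94.4, 111 and 95.1 CPM with the combination, against 24.9, 25.7 and 28.9 CPM with vehicle (log2 fold change 1.92, SE 0.14, edgeR adjusted p = 1.45e-08). The RNA-binding antiviral proteins moved likewise, with no overlap between the groups: IFIT2 rose by 2.65, IFIT1 by 2.36 and IFIT3 by 2.30 on the log2 scale.

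The oligoadenylate synthetase family gave log2 fold changes of 2.53 for OASL, 2.26 for OAS3, 2.21 for OAS2 and 1.34 for OAS1, each called. STAT2 and IRF9, factors that carry the interferon signal to these genes, were not called: STAT2 gave 0.22 (edgeR adjusted p = 0.088) and IRF9 0.40 (edgeR adjusted p = 0.597). IRF7, the inducible regulator, rose by 0.79. The other 4 members that were not called were MX1, ISG20, IFI35 and IFITM2, with log2 fold changes between -0.14 and 1.17. Of 15 genes of class I presentation, 2 were higher, 2 lower and 11 not called, with a list median of 0.06. Over all genes tested, 4.85% were higher and 7.35% lower. TAP1, which carries peptides into the endoplasmic reticulum, rose by 0.40 and HLA-E fell by 0.44. Of 10 class II genes, 2 were higher and none lower, with a median of 0.33, and 2 of 8 were higher without line genes. HLA-DRA, a class II alpha chain, had 16.7, 17.4 and 15.2 CPM in the combination libraries, against 6.16, 7.48 and 6.93 CPM in the vehicle libraries, with no overlap (log2 fold change 1.26, edgeR adjusted p = 2.75e-05). Its LAA libraries lay at 13.9, 15.6 and 16.1 CPM. The other, CIITA, the class II transactivator, rose by 0.88 and was called in 11 of 18 settings.

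Promoters of these genes are shown because most hold the response element. The element was searched as GAAA, any 2 bases and GAAA again, on both strands in the 250 bases before each gene's start, in RefSeq sequence of build GRCh38.p14. Of the 42 genes called higher, 32 matched a promoter by symbol, and 23 of those held it (71.9%), against 1014 of all 27305 genes with such a window (3.71%). Of the list members tested, called or not, 25 of 37 held it (67.6%), so the share describes the list and not the calls. Among all genes called higher it was 46 of 633 (7.27%), and among all genes tested 376 of 10856 (3.46%). Capitals mark each match, with the 2 free bases included.
IFI27, chr14:94110486-94110735, plus strand: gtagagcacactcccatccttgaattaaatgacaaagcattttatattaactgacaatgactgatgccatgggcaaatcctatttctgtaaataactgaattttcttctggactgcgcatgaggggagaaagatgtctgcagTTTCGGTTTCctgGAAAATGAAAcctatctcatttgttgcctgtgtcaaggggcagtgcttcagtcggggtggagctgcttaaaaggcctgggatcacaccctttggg
ISG15, chr1:1013247-1013496, plus strand: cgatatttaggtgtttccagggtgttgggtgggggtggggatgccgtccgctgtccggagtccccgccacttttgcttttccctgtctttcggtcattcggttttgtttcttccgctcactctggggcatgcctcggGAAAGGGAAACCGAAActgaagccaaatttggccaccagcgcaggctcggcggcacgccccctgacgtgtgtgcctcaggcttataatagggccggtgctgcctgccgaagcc
OAS3, chr12:112938224-112938473, plus strand: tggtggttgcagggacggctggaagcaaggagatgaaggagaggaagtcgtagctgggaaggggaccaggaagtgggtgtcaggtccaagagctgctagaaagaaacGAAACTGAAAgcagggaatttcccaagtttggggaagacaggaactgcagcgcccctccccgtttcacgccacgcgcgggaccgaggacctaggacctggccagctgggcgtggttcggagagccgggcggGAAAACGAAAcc
IFI27 and ISG15 hold 2 matches each, and so does OAS3, a gene with 97.2, 162 and 121 CPM in the combination libraries, against 18.1, 31.5 and 29.9 CPM in the vehicle libraries. A match is a description of the sequence and not a sign that a factor was bound.

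Of the 48 interferon-stimulated genes tested, 21 were line genes; of the other 27, 23 were called higher. The combination level of IFI27 was set beside that of untreated THP-1, whose CPM are on the scale of all 24 libraries: it was 35.7 ± 9.66 CPM in MOLM-13 combination libraries and 26.1 ± 2.55 CPM in THP-1 vehicle libraries (SD, n = 3 each). With LAA alone, 6 of 48 members were called higher and 1 lower than vehicle, and 1 higher and 1 lower of the 27 that are not line genes, with a median of 0.19 over the 48, where 0.792% of all genes were higher and 1.08% lower. LAA libraries held 1.43, 1.65 and 2.12 CPM of IFI44L, none above the highest vehicle library.

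**Figure D3:**
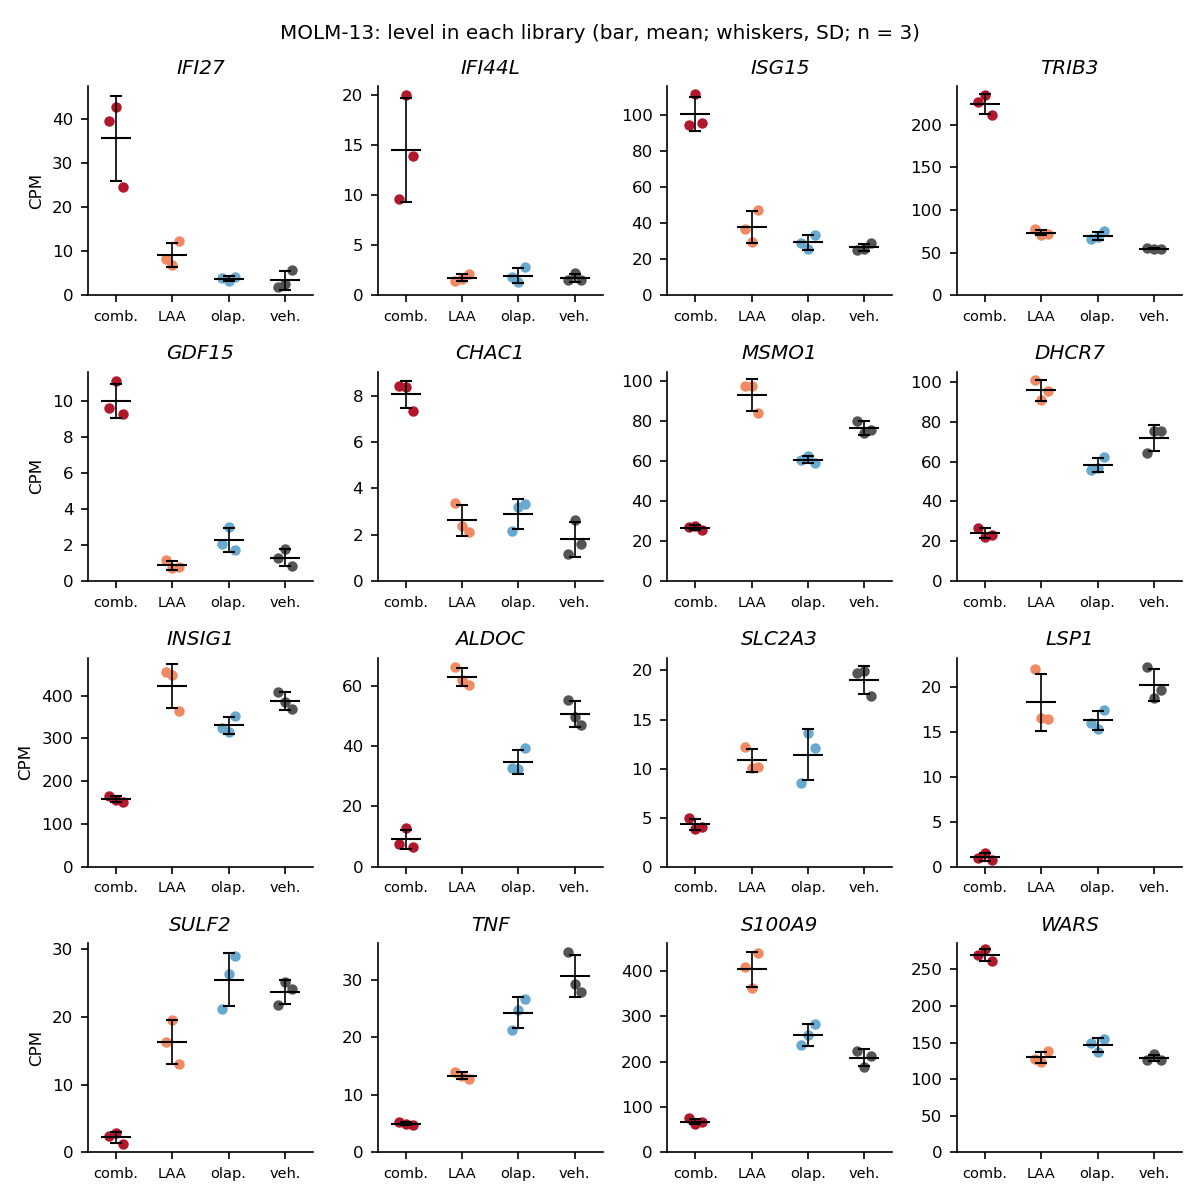
Level in CPM of 16 genes in each MOLM-13 library, with combination, LAA, olaparib and vehicle from left to right; points are libraries, bars means and whiskers SD (n = 3). The 3 combination libraries stand apart from the vehicle libraries in each panel, as for TRIB3 at 212 to 235 CPM with the combination and 54.3 to 55.5 CPM with vehicle. The rules by which genes were named favour such separation. Libraries of the 2 groups did not overlap at 35.1% of all genes tested.

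Genes of the integrated stress response and of amino acid supply also rose. Of 31 tested, 19 were called higher and 2 lower, where 4.85% of all genes tested were higher and 7.35% lower. The list's median was 0.64, and none of its members was a line gene. TRIB3, a pseudokinase that restrains ATF4 and AKT, had 227, 235 and 212 CPM in the combination libraries, against 55.5, 54.4 and 54.3 CPM in the vehicle libraries. Its groups were separated by many times their spread: the log2 fold change was 2.04, with an SE of 0.08 and an edgeR adjusted p of 3.56e-12. TRIB3 is no line gene by the 2-fold rule. In the olaparib libraries it was still lower in MOLM-13 than in THP-1, at -0.68 on the log2 scale (edgeR adjusted p = 2.02e-07). CHAC1, which degrades glutathione, had 8.42, 8.38 and 7.36 CPM with the combination, against 1.16, 2.64 and 1.62 CPM with vehicle (log2 fold change 2.17, SE 0.27, edgeR adjusted p = 1.64e-05). GDF15, a secreted stress cytokine that is also a p53 target, had 9.66, 11.1 and 9.30 CPM with the combination, against 1.29, 1.76 and 0.827 CPM with vehicle (log2 fold change 2.97, SE 0.27, edgeR adjusted p = 3.47e-07). DDIT3, the factor CHOP, rose by 1.27 and ATF5, a related factor, by 0.94.

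ATF4 itself did not pass the test at the level of its messenger RNA, with 272, 258 and 272 CPM in the combination libraries, against 279, 260 and 256 CPM in the vehicle libraries. Serine synthesis genes rose, PSAT1 by 0.85 and PHGDH by 0.66, as did the amino acid transporters SLC7A5 by 0.81 and SLC7A11 by 0.78. SESN2, which signals amino acid and redox stress to mTORC1, rose by 0.89. DDIT4, another inhibitor of mTORC1 that also answers to hypoxia, went the other way: it had 39.2, 33.6 and 26.7 CPM with the combination, against 70.2, 69.1 and 71.8 CPM with vehicle. Beyond the list, ADM2 and INHBE, secreted peptides that are known targets of this response, rose by 1.79 and 1.74. Of 20 cytosolic aminoacyl-tRNA synthetases, which charge transfer RNAs, 10 were higher and 2 lower with a median of 0.25. The shares over all genes tested were 4.85% higher and 7.35% lower. WARS, the tryptophanyl enzyme and also an interferon-induced gene, had 269, 278 and 261 CPM with the combination, against 126, 134 and 126 CPM with vehicle (log2 fold change 1.06, SE 0.07, edgeR adjusted p = 8.53e-09). GARS, the glycyl enzyme, rose by 0.62.

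Chaperones of the endoplasmic reticulum moved less. Of 20 tested, 7 were higher and 1 lower, beside 4.85% and 7.35% of all genes tested. The list's median was 0.20, and 4 were higher without vehicle replicate 3 and also without combination replicate 2. HSPA5, the chaperone BiP, had 630, 664 and 628 CPM with the combination, against 509, 469 and 467 CPM with vehicle, a log2 fold change of 0.41 with an edgeR adjusted p of 0.000934. The composite site of CHOP and ATF factors, searched as TGATGNAA on both strands, was held by 4 of 25 list members tested that matched a promoter (16%) and by 2 of the 16 called higher (12.5%), against 3.89% of all genes. It is shown for CHAC1, in capitals on the reverse strand.
CHAC1, chr15:40953221-40953470, plus strand: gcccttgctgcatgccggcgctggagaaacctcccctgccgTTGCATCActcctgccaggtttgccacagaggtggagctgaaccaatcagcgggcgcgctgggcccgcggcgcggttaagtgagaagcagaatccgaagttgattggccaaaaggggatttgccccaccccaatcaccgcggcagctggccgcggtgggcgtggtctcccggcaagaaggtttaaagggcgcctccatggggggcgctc
TRIB3 held no match in its windows upstream of the start.

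Cholesterol genes fell as a group. Of 25 tested genes of cholesterol synthesis and uptake, 23 were called lower and none higher, where 7.35% and 4.85% of all genes tested were. The list's median was -0.78, and none of its members was a line gene. MSMO1, a sterol C4 demethylase, had 26.9, 27.6 and 25.5 CPM in the combination libraries, against 80.2, 73.8 and 75.3 CPM in the vehicle libraries. No combination library came near a vehicle library, and the log2 fold change was -1.52 with an SE of 0.08 and an edgeR adjusted p of 7.08e-10. DHCR7, which makes cholesterol from its last precursor, had 26.8, 22.1 and 23.3 CPM with the combination, against 64.6, 75.5 and 75.7 CPM with vehicle (log2 fold change -1.58, SE 0.10, edgeR adjusted p = 1.67e-09). INSIG1, which holds SREBP in the endoplasmic reticulum and is itself an SREBP target, had 165, 157 and 152 CPM with the combination, against 409, 386 and 368 CPM with vehicle. HMGCS1, an early enzyme of the pathway, fell by 1.35 and LSS, which closes the sterol rings, by 1.18. SREBF2, the gene of the sterol-sensing factor, fell by 0.73. CYP51A1 and PMVK were not called, at -0.91 and -0.32.

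Fatty acid synthesis showed the same direction, with 6 of 9 genes lower, none higher and a median of -0.72. Among all genes tested, 7.35% were lower and 4.85% higher. FADS2, a desaturase of polyunsaturated fatty acids, had 116, 100 and 108 CPM with the combination, against 279, 278 and 300 CPM with vehicle (log2 fold change -1.41, SE 0.08, edgeR adjusted p = 7.1e-10). SCD, which makes oleate, fell by 1.28, FASN by 0.68 and SREBF1 by 0.81. ACACA, ACLY and ELOVL5 were not called, between -0.17 and -0.01. The sterol element searched as TCACNCCAC was found in the 250 bases of 1 of 17 matched members called lower, SREBF2, against 1.09% of all genes.

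Targets of hypoxia-inducible factor and glycolytic enzymes were lower in 22 of 41 and higher in none, with a median of -0.42. The shares among all genes tested were 7.35% lower and 4.85% higher. ALDOC, an aldolase isoform, had 7.64, 12.8 and 6.61 CPM in the combination libraries, against 55.3, 49.6 and 47.1 CPM in the vehicle libraries. Its lowest vehicle library was well above its highest combination library (log2 fold change -2.47, SE 0.17, edgeR adjusted p = 7.07e-09). SLC2A3, the glucose transporter GLUT3, had 4.96, 3.89 and 4.08 CPM with the combination, against 19.8, 19.98 and 17.4 CPM with vehicle (log2 fold change -2.15, SE 0.17, edgeR adjusted p = 4.77e-08). BNIP3, a receptor of mitophagy, had 47.1, 53.3 and 43.7 CPM with the combination, against 121, 109 and 100.6 CPM with vehicle. EGLN3, a prolyl hydroxylase induced by the factor it marks, fell by 2.95, P4HA1 by 0.82 and PDK1 by 0.67. The abundant enzymes LDHA, GAPDH, ALDOA and TPI1 fell by 0.38, 0.37, 0.55 and 0.39. VEGFA and SLC2A1, well-known targets of the factor, were not called at 0.19 and -0.19.

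**Figure D4:**
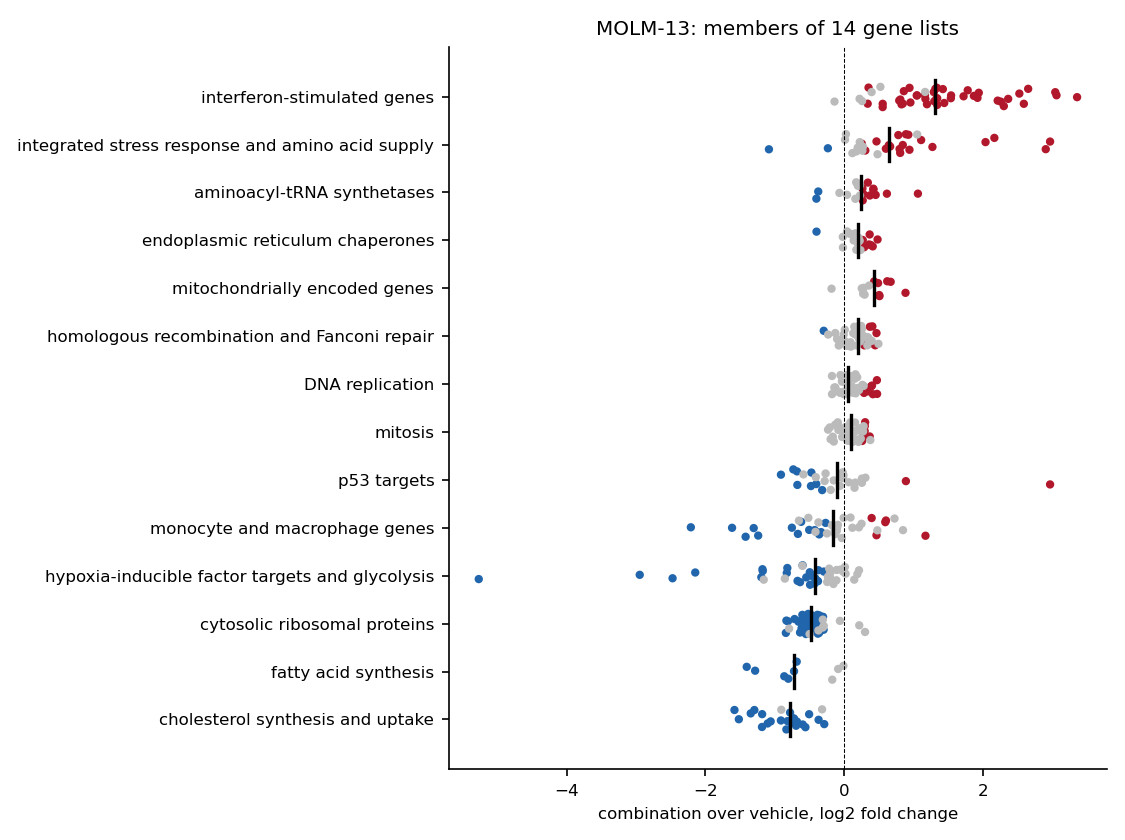
Log2 fold change of combination over vehicle for every tested member of 14 gene lists. Red points were called higher, blue points called lower and grey points not called; the black bar is the list's median and the dashed line the median of all genes (0.003). Interferon-stimulated genes have the highest list median of those drawn (1.31) and cholesterol genes the lowest (-0.78).

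Large decreases were also found outside these lists. LSP1, an actin-binding protein of leukocytes, had 0.929, 1.54 and 0.746 CPM in the combination libraries, against 22.2, 18.8 and 19.6 CPM in the vehicle libraries. It was near lost in all 3 combination libraries, with a log2 fold change of -4.20, an SE of 0.20 and an edgeR adjusted p of 1.52e-10. FCGR2B, the inhibitory IgG receptor, had 0.671, 0.324 and 0.447 CPM with the combination, against 7.58, 5.42 and 6.66 CPM with vehicle (log2 fold change -3.78, SE 0.34, edgeR adjusted p = 2.48e-07). Other members of its family share sequence with it, and how reads were divided among them is not given in the sources used here. SULF2, an extracellular heparan sulfatase, had 2.48, 2.87 and 1.29 CPM with the combination, against 21.8, 25.2 and 24.2 CPM with vehicle (log2 fold change -3.40, SE 0.21, edgeR adjusted p = 2.39e-09). TBC1D30, a GTPase-activating protein, had 13.7, 20.6 and 6.07 CPM with the combination, against 112, 102 and 95.8 CPM with vehicle. TMEM45A, PNCK and SPP1, the last a secreted phosphoprotein, fell by 2.34, 2.35 and 2.26. MFNG, a glycosyltransferase that modifies Notch, fell by 2.77. In the LAA libraries it was also low, at 1.496 to 2.30 CPM beside 0.769 to 1.70 CPM with the combination, with overlap.

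TNF, the inflammatory cytokine, had 5.32, 4.86 and 4.82 CPM with the combination, against 34.8, 29.2 and 27.9 CPM with vehicle (log2 fold change -2.61, SE 0.13, edgeR adjusted p = 1.63e-10). Of 24 NF-kB targets and inflammatory mediators, TNF among them, 3 were lower and none higher, with a median of -0.11, and 2 of 23 were lower without the line gene, where 7.35% of all genes tested were called lower. Among 40 monocyte and macrophage genes, 14 were lower and 5 higher with a median of -0.16, and 13 and 5 of 37 without line genes; the higher count was 3 without vehicle replicate 3. S100A9 and S100A8, the calprotectin subunits, fell by 1.62 and 1.42. FCER1G, an adaptor of Fc receptors, fell by 1.24, and the integrin chains ITGAM and ITGB2 fell by 0.75 and 0.67. NCF1 fell by 1.30; it is a line gene and has near-identical pseudogenes, so its counts are uncertain. Lysozyme, LYZ, rose by 0.40, and CD14 was not called at 0.85 (edgeR adjusted p = 0.095), so the markers of this lineage did not share a direction.

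Apart from interferon and stress genes, the largest increases were in genes of low level. KLHDC7B, a kelch protein that is a line gene, had 8.06, 7.20 and 6.16 CPM in the combination libraries, against 0, 0.782 and 0.394 CPM in the vehicle libraries. LRRC2, a leucine-rich repeat protein, had 3.67, 4.98 and 4.37 CPM with the combination, against 0.268, 0.147 and 0.276 CPM with vehicle (log2 fold change 4.19, SE 0.52, edgeR adjusted p = 1.61e-05). S100P, also a line gene, rose by 2.53, and QRICH2, IL31RA, CLEC2L and ESRP1 rose by 2.36, 2.20, 1.88 and 1.71. IL31RA is a cytokine receptor chain of the interleukin 6 family and ESRP1 an epithelial splicing regulator. CYP1B1, a cytochrome P450 target of the aryl hydrocarbon receptor, had 35.2, 42.0 and 36.9 CPM with the combination and 38.4, 35.4 and 35.7 CPM with olaparib alone, against 19.4, 18.1 and 21.6 CPM with vehicle. It was the only gene of 16160 called with olaparib alone by edgeR (0.00619%). Olaparib replicate 3 stood apart, at -60.06 on the second principal component where the other 2 olaparib libraries were at -5.92 and -1.303, and with 9.30% of counts on mitochondrially encoded genes against their 7.05 and 6.71%. Without it, in a setting added after the data were seen, 1 of 16579 genes was called with olaparib alone.

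Few genes tied to the direct targets of the drugs passed the test. TET1, TET2, TET3, TDG, DNMT1, DNMT3A and DNMT3B, which oxidize, repair or write DNA methylation, were not called, and their log2 fold changes ran between -0.36 and 0.32. TET3 was called in 2 of 18 settings. Of 21 tested genes of DNA methylation and its oxidation, 2 were lower and 0 higher. PARP1 had 713, 748 and 729 CPM in the combination libraries, against 628, 656 and 650 CPM in the vehicle libraries, and did not pass (log2 fold change 0.18, edgeR adjusted p = 0.0886). PARP1 was called in 2 of 18 settings. PARP2 gave 0.08 and was not called. Over all genes tested, 4.85% were called higher and 7.35% lower. Of 42 genes of homologous recombination and Fanconi repair, 7 were higher and 1 lower with a median of 0.20. BRCA2, a mediator of homologous recombination, had 40.4, 47.6 and 41.2 CPM with the combination, against 30.4, 30.7 and 32.5 CPM with vehicle (log2 fold change 0.47, SE 0.09, edgeR adjusted p = 0.00197). The helicase BLM rose by 0.45. The count was 4 of 42 without vehicle replicate 3 and also without combination replicate 3. Of 41 replication genes 7 were higher and none lower, among them MCM10 at 0.47 and MCM7 at 0.40, with a median of 0.06, and of 44 mitosis genes 6 were higher. The mitosis count was 2 without vehicle replicate 3, 2 without combination replicate 2 and 3 without combination replicate 3.

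Among 28 p53 targets, 8 were lower and 2 higher, namely GDF15 and SESN2, which also belong to the stress list. The lower count was 4 without combination replicate 2 and 5 without combination replicate 3. For this list and the fusion program below, the shares over all genes tested were 7.35% lower and 4.85% higher. CDKN1A, the cell cycle inhibitor p21, had 104, 109 and 97.4 CPM with the combination, against 149, 142 and 142 CPM with vehicle (log2 fold change -0.48, SE 0.07, edgeR adjusted p = 8.09e-05). BTG2, an antiproliferative target, fell by 0.91. HMOX1, a marker of oxidative stress, was not called at 0.24. Of the KMT2A fusion program, 7 of 32 were lower and 1 higher; 3 of the 7 are line genes, namely IGF2BP3, MEIS1 and FLT3, and 4 of 29 were lower without them. The lower count was 4 without combination replicate 3, and no member was higher without vehicle replicate 1, combination replicate 2 or combination replicate 3. HOXA9, a central target of the fusion, had 44.0, 47.7 and 46.3 CPM with the combination, against 62.1, 57.8 and 54.7 CPM with vehicle, a log2 fold change of -0.34 with an edgeR adjusted p of 0.0159. MYC fell by 0.29; without combination replicate 3 its edgeR adjusted p was 0.0608, with a range of 0.000521 to 0.0608 over all settings.

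Ribosomal protein genes were lower in 55 of 64 and higher in none, with a median of -0.48. For this list and the mitochondrially encoded genes below, the shares over all genes tested were 7.35% lower and 4.85% higher. RPS28 had 265, 214 and 236 CPM in the combination libraries, against 493, 355 and 406 CPM in the vehicle libraries. The count was 36 without vehicle replicate 1 and 35 without combination replicate 2. Mitochondrially encoded genes took 7.28, 7.82 and 7.70% of counts in the combination libraries, against 5.37, 5.44 and 5.40% in the vehicle libraries, with an exact two-sided permutation p of 0.1, the smallest possible. LAA libraries lay at 5.63 to 6.64% and olaparib libraries at 6.71 to 9.30%. Of the 13 genes, 7 were called higher with a median of 0.43, but only 1 with limma on the deposited FPKM values. Gene length moved with the result too. The median log2 fold change was -0.101 in the 4040 genes with the shortest models and 0.071 in the 4040 with the longest, with 64 higher and 358 lower calls among the short and 300 higher and 221 lower among the long. The part of length, or of the mitochondrial share, in the lower counts of these short genes was not tested.

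Set beside LAA alone, the combination changed 2413 genes (14.9%), 1080 higher (6.68%) and 1333 lower (8.25%), or 1509 higher and 946 lower where libraries were scaled by their totals. This comparison and the last share the combination libraries. Interferon-stimulated genes were higher than with LAA in 43 of 48, or 24 of 27 without line genes, and cholesterol genes lower in 24 of 25, with medians of 1.16 and -1.09. The summed level of the THP-1-silent genes averaged 4.08 CPM with the combination and 5.34 CPM with LAA. IGF2BP3 was their only called member, and FLT3 was not called (log2 fold change 0.36, edgeR adjusted p = 0.118). Silent genes at such low levels could be called only at large folds. The few calls thus cannot show whether both groups held the same share of MOLM-13 cells. The count was 1029 without combination replicate 2, 1388 without LAA replicate 3, 1392 without combination replicate 3 and 1589 without LAA replicate 1. The genes named for the largest changes were mostly those given above: GDF15 was 3.504 higher and LSP1 4.05 lower on the log2 scale. ALDOC, at 66.4, 62.0 and 60.4 CPM with LAA, was 2.79 lower with the combination, and S100A9 2.57 lower. Against olaparib alone 1208 genes differed (7.48%), 467 higher (2.89%) and 741 lower (4.59%), or 771 and 529 by library totals; left-out libraries gave 624 without combination replicate 2 and 632 without combination replicate 3. SULF2 was 3.51 lower, FCGR2B 3.42 lower and IFI27 3.24 higher than with olaparib.

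Whether both compounds together did more or less than the sum of each alone on the log2 scale was tested as an interaction. It was called for 329 genes (2.04%), 115 higher (0.712%) and 214 lower (1.32%), or 169 and 159 by library totals. A library left out moved the count to as few as 206, without combination replicate 2, and as many as 496, without LAA replicate 2; it was 210 without vehicle replicate 2, 210 without combination replicate 3, 218 without vehicle replicate 3 and 320 without olaparib replicate 3. S100A9 had 74.97, 62.8 and 66.4 CPM with the combination, 407, 362 and 439 CPM with LAA and 236, 258 and 283 CPM with olaparib, against 224, 188 and 213 CPM with vehicle. LAA alone thus gave the highest level and the combination the lowest, with no overlap, and the interaction was -2.88 with an SE of 0.14 and an edgeR adjusted p of 2.46e-10. S100A8 gave -2.46. LSP1 and SULF2 gave -3.74 and -2.96, and neither was called with either compound alone.

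The interaction was higher for 28 of 48 interferon-stimulated genes, 11 of 27 without line genes, and lower for none, with a list median of 0.92 beside -0.006 for all genes. IFI44L gave 2.87 (SE 0.43, edgeR adjusted p = 0.000662) and KLHDC7B 4.10 (SE 0.88, edgeR adjusted p = 0.0142). For cholesterol genes it was lower for 21 of 25 and higher for none, with a median of -0.85; with LAA alone 6 of these genes were called higher than vehicle. DHCR7 had 101.3, 90.9 and 95.5 CPM with LAA, above all its vehicle libraries, and its interaction was -1.69 (SE 0.13, edgeR adjusted p = 3.03e-07). Fatty acid genes gave 6 of 9 lower. The stress list gave 9 of 31 higher, with PSAT1 at 1.02 and TRIB3 at 1.26, and the hypoxia and glycolysis list 11 of 41 lower, with ALDOC at -2.25.

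In THP-1 the same pair of treatments called 3982 of 17089 genes (23.3%), 2101 higher (12.3%) and 1881 lower (11%). Of the genes called higher in MOLM-13, 562 were called higher in THP-1 as well, which is 71.7% of the MOLM-13 calls and 27.3% of the THP-1 calls among genes tested in both. Of those called lower, 713 were shared, 60% and 38.3% of each list. Genes that THP-1 hardly expressed summed to 4.08 CPM in the MOLM-13 combination libraries and 31.6 CPM in the vehicle libraries, as given above, and the part of this in the shared calls was not tested. There were 3 genes higher in MOLM-13 and lower in THP-1, and 16 lower in MOLM-13 and higher in THP-1. The lists went the same way in THP-1: 47 of 48 interferon-stimulated genes (26 of 27 without line genes) and 27 of 31 stress and amino acid genes were higher, and 22 of 25 cholesterol genes were lower.

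**Figure D5:**
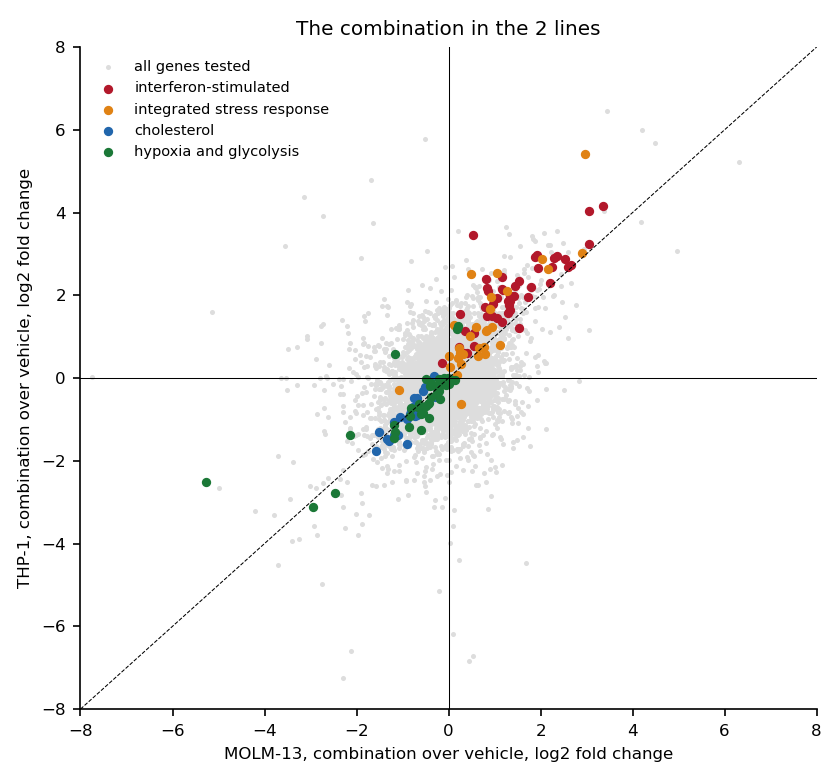
Each point is 1 gene, with the log2 fold change of combination over vehicle in MOLM-13 on the horizontal axis and in THP-1 on the vertical axis; the dashed line marks equal change. Interferon-stimulated genes (red) lie at the upper right, where the list median is 1.31 in MOLM-13 and 1.99 in THP-1, and cholesterol genes (blue) at the lower left, at -0.78 and -0.89.

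The difference between the lines in the effect of the combination was tested over all 24 libraries and was called for 364 genes (2.13%), 262 with the more positive change in THP-1 (1.53%) and 102 with the more positive change in MOLM-13 (0.597%). Interferon-stimulated genes had the more positive change in THP-1 in 21 of 48 cases, 14 of 27 without line genes, and the more positive change in MOLM-13 in none; for stress and amino acid genes it was 13 of 31 and none. ISG15 differed by 1.04, TRIB3 by 0.85 and WARS by 0.91, each with a weaker rise in MOLM-13. MX1, an antiviral GTPase, had 1.76, 1.94 and 2.59 CPM in MOLM-13 combination libraries, against 1.47, 1.56 and 1.34 CPM in MOLM-13 vehicle libraries, and was not called there, while the difference was 2.93 (edgeR adjusted p = 3e-07). CDKN1A rose by 0.55 in THP-1 and fell in MOLM-13, a difference of 1.02. The count was 211 without MOLM-13 vehicle replicate 1, 213 without MOLM-13 combination replicate 3, 240 without MOLM-13 combination replicate 2, 211 without THP-1 vehicle replicate 1, 237 without THP-1 vehicle replicate 2 and 228 without THP-1 combination replicate 3.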

How the data were processed

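Per the labels, RNA was extracted with RNeasy Plus, polyA-selected and made into libraries with the NEBNext Ultra RNA kit, which does not mark strand, so a gene and an overlapping or antisense partner cannot be told apart. The submitters' processing notes name HISAT2, SAMtools and DESeq2 and build hg38; versions and counting settings were not given in the sources used here. Read counts per gene, not normalized, were deposited by the authors, and FPKM values, divided by gene length and library size, were deposited in a table of their own.

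Counts were tested with edgeR 4.0.16 in R 4.3.3: TMM scaling, filterByExpr, quasi-likelihood tests in a fit over the 12 MOLM-13 libraries, which then share an estimate of spread, with Benjamini-Hochberg adjustment and a threshold of 0.05. The difference between the lines was fitted over all 24 libraries. A ± gives the SD over 3 libraries, and an SE belongs to a log2 fold change. The code was tested on simulated counts. Alternatives used DESeq2 1.42.0, limma 3.58.1 on log2 of the deposited FPKM plus 1 or 0.1, other scalings and filters, a replicate block and each library left out. Counting floors cover counting error only.

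Named genes are, by rule, those with the largest changes among protein-coding genes called, of mean log2 CPM of at least 1 and without overlap between groups, up to 4 called members of each list with the smallest adjusted p, and watched genes of the drugs' biology. Other list members were named after their values were seen. The lists and members were chosen with earlier results of these data known.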

Additional observations from a re-analysis of the deposited data

Results flagged for a closer look

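The effect of the combination differed between THP-1 and MOLM-13, by edgeR's adjusted test of that difference over 24 libraries, for the genes below. Values are the log2 effect in THP-1 minus that in MOLM-13. Among interferon and antigen presentation genes the difference was 1.04 for ISG15, 0.71 for IFITM1, 0.64 for TAP1 and 0.77 for HLA-E. Among stress genes and chaperones it was 2.44 for GDF15, 0.85 for TRIB3, 0.91 for WARS, 0.77 for SESN2, 0.55 for HSPA5 and 0.33 for SLC7A5. It was 1.02 for CDKN1A.

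Line markers and myeloid genes gave 2.11 for FLT3, 4.2 for MEIS1, 4.04 for MFNG, 3.28 for CST7, 1.0 for NCF1, 1.68 for TNF, 1.04 for LYZ and 0.92 for NKG7. DYSF, a membrane repair protein, gave 6.48. FLT3, MEIS1, CST7, NCF1, NKG7 and DYSF fell in MOLM-13 and are line genes, and the part of the line measures in these differences was not tested. The change was more positive in MOLM-13 for EPHB1 at -1.46, ROS1 at -2.05, LRRC17 at -1.62 and MT-ATP6 at -0.49.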

How the results depend on the processing

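Of 142 named genes, 129 were called against vehicle, 105 of them in every setting that tested them, up to 18, and none of the 129 changed direction. Of the 13 not called, 3 were called in 1 or more settings. TET2, not called, ran from -0.04 to 0.17. The count of 1972 genes against vehicle was 2349 with DESeq2, 2947 in a fit of the 6 libraries, 1672 and 1635 with limma on FPKM, 349 at 2-fold or more and 963 at an adjusted p under 0.01. Added after the data were seen, it was 2331 without olaparib replicate 3, and 1967 and 1907 with scaling that left out mitochondrial, or mitochondrial and ribosomal protein, genes. The interaction was called for 532 genes with DESeq2 and 555 with no filter, against 329, and the line difference for 628 and 603, against 364. The cause was not tested.

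With 1 library left out in turn the counts were 1043 to 1578 against vehicle, 1029 to 3168 against LAA, 624 to 918 against olaparib, 206 to 496 for the interaction and 211 to 353 for the line difference. The difference in summed CPM of THP-1-silent genes, -27.53, was -28.1 to -27.05 likewise and -17.02 with at most 6 THP-1 counts. That in mitochondrial share, 2.193 percentage points, was 2.085 to 2.353.

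Deviations from the group mean had correlations of 0.0059 to 0.0927 between combination and vehicle libraries with the same number. Between those with other numbers the correlations were -0.0845 to 0.008. With 3 pairs of the same number, these values cannot show whether such libraries shared a culture. With a replicate block 2015 genes were called. With 3 libraries a group, genes of few counts could be called only at large folds.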
